A study of Mus musculus with 8 samples.

Results

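The genes described here are 10 members of the TGF-beta pathway, taken by their symbols from a table of 21240 genes. They are the ligands Tgfb1, Tgfb2 and Tgfb3, the receptors Tgfbr1, Tgfbr2 and Tgfbr3, the signal transducer Smad3, the inhibitors Smad7 and Skil, and the secreted target Tgfbi. RNA came from NMuMG, a mouse mammary epithelial line grown with serum and insulin and labelled wild type. All cells received DMSO, the vehicle, or BRM014, an inhibitor of the ATPases SMARCA4 and SMARCA2 of the SWI/SNF chromatin remodelling complexes, for 6 h or 30 h. Each of the 4 groups (DMSO 6 h, BRM014 6 h, DMSO 30 h and BRM014 30 h) had 2 libraries, labelled biological replicates, so p-values measure the spread between these libraries, which may be technical. No dose of BRM014 is named in the labels, the labels also name no added TGF-beta, and all 8 libraries came from 1 line.

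TGF-beta ligands are secreted in a latent form, held by their own propeptide and by latent TGF-beta binding proteins, and are freed by integrins, proteases or thrombospondin. The active ligand binds the type II receptor (Tgfbr2), which phosphorylates the type I receptor (Tgfbr1), and that kinase phosphorylates SMAD2 and SMAD3, which enter the nucleus with SMAD4. In mammary epithelium the pathway is known for restraining growth and for inducing epithelial-mesenchymal transition, and NMuMG is a common model of that response.

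In these libraries BRM014 was accompanied at both times by lower Tgfbr1 and higher Tgfb3, and by fewer of the few Tgfbi counts, while Tgfb1, Tgfb2 and Skil stayed above the threshold for adjusted p at 6 h and at 30 h. Tgfbr2 was lower at 6 h and did not pass at 30 h, Smad3 was higher at 30 h, and Smad7 missed the threshold at 30 h. All 3 ligand genes rose between 6 h and 30 h, in DMSO and in BRM014. The calls for the rises of Tgfb3 between 6 h and 30 h were lost when some single libraries were left out. So was the call for the 6 h fall of Tgfbr2 with BRM014.

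For Tgfbr1 and Tgfbi, the members with the largest decreases with BRM014 at both times, the bases before the RefSeq transcription starts are shown. They give the sequence at which these transcripts begin. They come from the RefSeq promoter table of build GRCm38.p6, which lists 2 starts for Tgfbr1. Windows of 6 of the 10 members were taken from it, with a chromosome left out of the search for members. The windows are 250 bases long and lie at chr4:47352972-47353221 and chr4:47385966-47386215 (Tgfbr1) and chr13:56609336-56609585 (Tgfbi), all on the plus strand. Capitals mark the short SMAD-binding motif CAGAC or its reverse complement GTCTG.
Tgfbr1, upstream start: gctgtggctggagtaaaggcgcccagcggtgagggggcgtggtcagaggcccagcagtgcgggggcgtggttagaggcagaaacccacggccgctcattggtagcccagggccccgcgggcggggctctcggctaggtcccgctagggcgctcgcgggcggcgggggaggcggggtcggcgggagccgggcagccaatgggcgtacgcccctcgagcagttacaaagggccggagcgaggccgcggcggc
Tgfbr1, downstream start: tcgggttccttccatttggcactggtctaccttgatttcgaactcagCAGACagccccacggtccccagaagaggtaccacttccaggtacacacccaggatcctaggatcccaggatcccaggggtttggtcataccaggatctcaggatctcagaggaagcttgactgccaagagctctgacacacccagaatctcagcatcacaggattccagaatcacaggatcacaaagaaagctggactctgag
Tgfbi: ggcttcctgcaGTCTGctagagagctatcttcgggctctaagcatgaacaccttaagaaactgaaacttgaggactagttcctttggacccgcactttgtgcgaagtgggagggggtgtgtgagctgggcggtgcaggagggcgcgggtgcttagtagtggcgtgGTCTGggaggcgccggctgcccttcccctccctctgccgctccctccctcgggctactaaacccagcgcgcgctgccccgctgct

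Both strands were searched for CAGAC, for the AP-1 motif TGANTCA and for the TEAD motif GGAATG, and in the windows shown only CAGAC and GTCTG were found. The upstream Tgfbr1 window held none of the 3 motifs and had 74.8% G and C. The downstream Tgfbr1 window held 1 CAGAC and the Tgfbi window held 2 GTCTG, with 52.8% and 62.4% G and C. Of the members whose windows are not shown, Tgfb2 had 2 CAGAC and Tgfbr2 had 1, while Tgfb1 and Smad3 had none. Of 32851 windows of the same length in the table, 42.2% held CAGAC, 6.75% held TGANTCA and 12.6% held GGAATG. A match is only a description of these letters, and which of the Tgfbr1 starts the cells used was not measured.

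Library totals ranged from 17859693 to 29955366 counts. Replicates correlated at 0.990 to 0.994 on the log2 scale of CPM (counts scaled to a common library size with TMM factors), and differed by more than counting noise. Counts were tested with edgeR's quasi-likelihood test on 11835 genes that passed a filter on low counts, with Benjamini-Hochberg adjusted p-values over all of them and 0.05 as the threshold. Fold changes are log2 values ± standard error (2 against 2 libraries). Of the epithelial markers, Cdh1 (250 to 632 CPM), Krt8 (1648 to 2918) and Krt18 (2292 to 4453) were high, Epcam had 0 counts in every library and Krt7 and Cldn4 stayed under 0.5 CPM. Summed fibroblast markers stayed at 0.426 to 0.782 CPM in all groups, with Lum at 0. Summed endothelial, adipocyte and T cell markers stayed under 0.8 CPM, with Emcn, Lep, Cd4 and Cd8a at 0. The macrophage sum (2.25 to 8.11 CPM) was nearly all Cd68, which is not specific to macrophages, with Adgre1 at 0. The myoepithelial sum, mostly Krt14, was 9.36 to 13.0 CPM in DMSO and 0.981 to 2.41 CPM in BRM014 at 6 h, and 3.28 to 8.42 and 0.0978 to 0.321 CPM at 30 h, lower with BRM014 at both times. The macrophage sum was lower with BRM014 as well (6.96 to 8.11 against 3.95 to 5.41 CPM at 6 h, 3.85 to 6.25 against 2.25 to 2.46 at 30 h), and the epithelial sum was higher at 30 h (4356 to 4514 against 6780 to 8003 CPM). The part of these markers in the results below was not tested. In bulk RNA, fewer cells of a type and less RNA per cell cannot be told apart.

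Of the 10 members, 9 passed the filter. At 6 h, 4 of these 9 differed between BRM014 and DMSO, 1 higher and 3 lower, where 23.8% of all tested genes differed (9.35% higher, 14.4% lower). At 30 h, 4 of 9 differed, 2 higher and 2 lower, where 35.9% of all tested genes differed (16.8% higher, 19.1% lower). Tgfbi passed the filter only through its DMSO libraries, which favours lower values with BRM014, and its adjusted p is not used. Among the other 8 tested members 3 differed at each time. The median log2 fold change of the 9 was -0.20 at 6 h and 0.04 at 30 h, beside -0.01 and -0.0046 for all tested genes. Tgfbi, the lowest value at both times, is included in these medians, and a still lower value for it could not move them. Medians without Tgfbi were not computed.

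**Figure D1:**
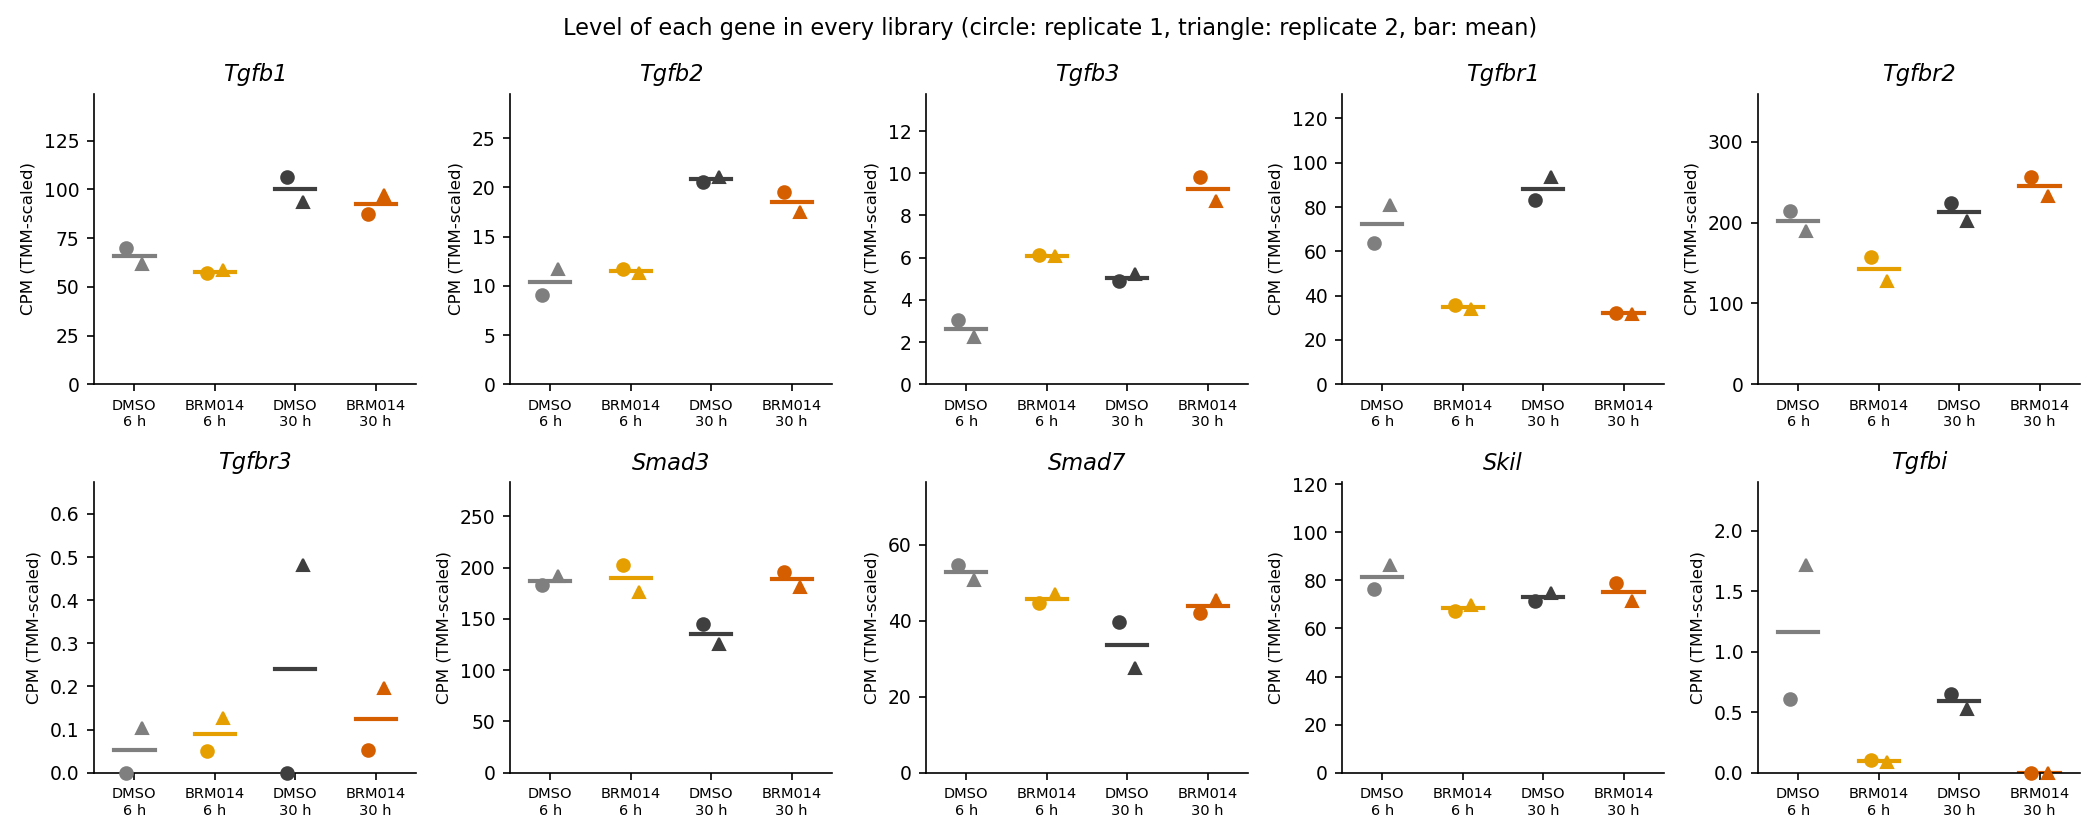
CPM (vertical axis, from 0, a separate scale for each gene) of the 10 members in the 8 libraries, with circles for replicate 1, triangles for replicate 2 and bars for the mean of 2. Both BRM014 libraries lie below both DMSO libraries of their time for Tgfbr1 and Tgfbi, and above them for Tgfb3.

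Per kilobase of merged exon length (GENCODE M21), Smad3 and Tgfbr2 had the highest levels of the 10 and Tgfb1 was the most abundant ligand transcript. In DMSO at 6 h the order was Smad3 (33.8 ± 1.13 CPM per kb, SD, n = 2), Tgfbr2 (24.7 ± 2.19), Tgfb1 (13.1 ± 1.16), Smad7 (11.7 ± 0.611), Tgfbr1 (11.1 ± 1.84) and Skil (8.40 ± 0.718). Below them came Tgfb2 (1.80 ± 0.323), Tgfb3 (0.781 ± 0.170), Tgfbi (0.308 ± 0.207) and Tgfbr3 (0.00794 ± 0.0112). Smad7 and Tgfbr1 overlapped, and other neighbours in this order did not. In DMSO at 30 h Tgfbr2 (26.0 ± 1.96) overlapped Smad3 (24.4 ± 2.49), and Skil (7.54 ± 0.227) overlapped Smad7 (7.43 ± 1.89). With BRM014 no neighbours overlapped, and Tgfbr1 stood below Skil at 6 h (5.34 ± 0.173 against 7.05 ± 0.185) and at 30 h (4.90 ± 0.0786 against 7.75 ± 0.555). The lengths come from another annotation than the counts, so the order between genes is approximate.

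Among the ligands, Tgfb1, the main form in most epithelia, was at 69.9 and 61.7 CPM in DMSO at 6 h, 57.1 and 58.5 in BRM014 at 6 h, 107 and 93.3 in DMSO at 30 h, and 87.3 and 97.3 in BRM014 at 30 h. The treated libraries were below the control libraries at 6 h and overlapped them at 30 h. Tgfb1 did not pass the BRM014 test at 6 h (-0.19 ± 0.11, adjusted p = 0.243) or at 30 h (-0.11 ± 0.11, adjusted p = 0.439).

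Tgfb2, whose product depends most on betaglycan for receptor binding, was at 9.10 and 11.7 CPM in DMSO and 11.8 and 11.3 in BRM014 at 6 h. At 30 h it was at 20.5 and 21.1 CPM in DMSO and 19.5 and 17.5 in BRM014. Its groups overlapped at 6 h and stood apart, lower with BRM014, at 30 h. Neither difference passed (0.14 ± 0.16, adjusted p = 0.581, then -0.17 ± 0.15, adjusted p = 0.399).

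Tgfb3, a ligand known for its role in palate fusion and in mammary involution, was at 3.05 and 2.24 CPM in DMSO at 6 h and 6.11 and 6.10 in BRM014. Its 30 h levels were 4.89 and 5.21 CPM in DMSO and 9.84 and 8.67 in BRM014. All treated libraries were above the controls of their time, by 1.20 ± 0.23 at 6 h (2.30-fold, adjusted p = 0.0016) and 0.87 ± 0.20 at 30 h (1.82-fold, adjusted p = 0.00483). The 2 effects did not pass the test of their difference (-0.34 ± 0.30, adjusted p = 0.588). The counts behind these values were 43 to 60 in DMSO at 6 h and 184 to 266 in BRM014 at 30 h. Set against Tgfb1 in the same library, per kilobase, Tgfb3 was at 0.0650 and 0.0540 of Tgfb1 in DMSO at 6 h and 0.159 and 0.155 in BRM014. At 30 h these ratios were 0.0684 and 0.0831, then 0.168 and 0.133. The ratio does not depend on library scaling, and the treated libraries lay above the control libraries at both times.

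Tgfbr1, the type I receptor kinase also called ALK5, was the abundant member with the most reduced level. It was at 64.0 and 81.0 CPM in DMSO and 35.7 and 34.1 in BRM014 at 6 h. At 30 h it was at 83.0 and 93.8 CPM in DMSO and 32.4 and 31.6 in BRM014. The groups did not overlap at either time, and Tgfbr1 fell by 1.06 ± 0.12 at 6 h (2.08-fold, adjusted p = 3.99e-05) and by 1.47 ± 0.12 at 30 h (2.76-fold, adjusted p = 1.27e-06). The difference between the times did not pass (-0.41 ± 0.17, adjusted p = 0.198).

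Tgfbr2, the ligand-binding type II receptor, was at 215 and 189 CPM in DMSO and 158 and 128 in BRM014 at 6 h. After 30 h it was at 224 and 202 CPM in DMSO and 257 and 233 in BRM014. The treated libraries were below the controls at 6 h and above them at 30 h. Tgfbr2 fell at 6 h (-0.50 ± 0.12, adjusted p = 0.00696) and did not pass at 30 h (0.20 ± 0.12, adjusted p = 0.200). Leaving out DMSO 6 h replicate 1 (-0.38, adjusted p = 0.101) ended the 6 h call, as did leaving out BRM014 6 h replicate 2 (-0.35, adjusted p = 0.132), in a range of 9.47e-05 to 0.132 over 17 alternatives.

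Tgfbr2 was the 1 member of 9 for which the 30 h and 6 h effects of BRM014 differed (0.70 ± 0.16, adjusted p = 0.0218), where 6.47% of all tested genes differed (3.89% with a higher and 2.59% with a lower effect at 30 h). This call was lost when DMSO 6 h replicate 1 was left out (adjusted p = 0.124), and likewise for DMSO 30 h replicate 2 (0.0656), BRM014 6 h replicate 2 (0.132) or BRM014 30 h replicate 1 (0.0755), and the effects ran from 0.55 to 0.86 with adjusted p from 0.000295 to 0.132 over 16 alternatives.

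The receptors thus changed unequally. Within a library, Tgfbr1 per kilobase was 0.373 and 0.536 of Tgfbr2 in DMSO at 6 h, and 0.283 and 0.335 in BRM014. At 30 h it was 0.463 and 0.583 in DMSO, and 0.158 and 0.170 in BRM014, so that the groups did not overlap at either time. Tgfbr3, the coreceptor betaglycan, did not pass the filter. Its counts were 0 and 2 in DMSO at 6 h, 1 and 3 in BRM014 at 6 h, 0 and 11 in DMSO at 30 h and 1 and 6 in BRM014 at 30 h, so a change was not detectable at this depth.

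**Figure D2:**
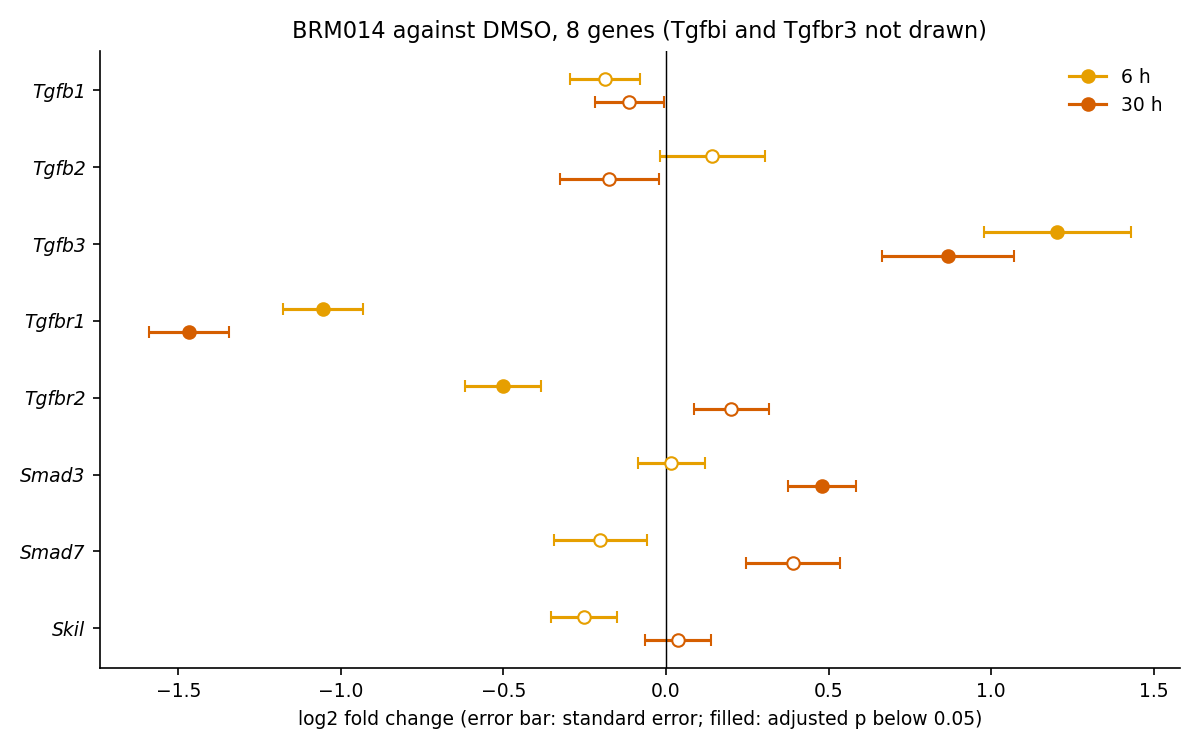
Log2 fold change of BRM014 against DMSO (horizontal axis; bars: standard error) for 8 members at 6 h and 30 h, with filled points for adjusted p below 0.05. Tgfbr1 lies at -1.06 and -1.47 and Tgfb3 at 1.20 and 0.87, and Tgfbr2 is at -0.50 at 6 h and 0.20 at 30 h.

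Smad3, the receptor-activated transcription factor, was at 183 and 192 CPM in DMSO and 202 and 177 in BRM014 at 6 h, with overlapping groups (0.02 ± 0.10, adjusted p = 0.933). At 30 h it was at 145 and 125 CPM in DMSO and 196 and 181 in BRM014. The treated libraries were above the controls at 30 h, and Smad3 rose by 0.48 ± 0.10 (1.39-fold, adjusted p = 0.00304). The DMSO libraries were lower at 30 h than at 6 h, while the BRM014 libraries of both times overlapped. The effects at the 2 times did not pass the test of their difference (0.46 ± 0.15, adjusted p = 0.0852). That difference passed without DMSO 30 h replicate 1 (0.58, adjusted p = 0.0322; 0.0290 to 0.345 over 16 alternatives).

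Smad7, an inhibitory SMAD that blocks the type I receptor and is itself induced by TGF-beta, was at 54.7 and 50.8 CPM in DMSO and 44.6 and 47.0 in BRM014 at 6 h. Levels at 30 h were 39.6 and 27.6 CPM in DMSO and 42.2 and 45.5 in BRM014. The treated libraries were below the controls at 6 h and above them at 30 h, but neither difference passed (-0.20 ± 0.14, adjusted p = 0.347, then 0.39 ± 0.14, adjusted p = 0.0508). The 30 h value lay at the threshold and passed in 8 of 17 alternatives, with 0.14 to 0.68 and adjusted p from 0.00135 to 0.437. It was 0.68 without DMSO 30 h replicate 1 and 0.14 without DMSO 30 h replicate 2, the libraries that differ most for this gene. The difference between the times (0.59 ± 0.20) did not pass either (adjusted p = 0.109), and passed without DMSO 30 h replicate 1 (0.88, adjusted p = 0.00462; 0.00462 to 0.315 over 16 alternatives). Skil, which encodes the SMAD corepressor SnoN, was at 76.5 and 86.3 CPM in DMSO and 67.1 and 69.7 in BRM014 at 6 h (-0.25 ± 0.10, adjusted p = 0.0935). At 30 h it was at 71.6 and 74.7 CPM in DMSO and 79.0 and 71.4 in BRM014 (0.04 ± 0.10, adjusted p = 0.802). Its groups stood apart at 6 h, lower with BRM014, and overlapped at 30 h.

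Tgfbi, a secreted matrix protein gene named for its induction by TGF-beta, was near the limit of detection. It had 12 and 33 counts in DMSO at 6 h, 2 and 2 in BRM014 at 6 h, 12 and 12 in DMSO at 30 h and 0 and 0 in BRM014 at 30 h. The groups did not overlap at either time. At 6 h the summed counts were 12.4-fold lower with BRM014 (exact 95% interval 4.53 to 47.5, for counting error only). The interval leaves out the spread between replicates, such as the 12 and 33 counts in DMSO. Because Tgfbi passed the filter through its DMSO libraries, these values only describe its counts. At 30 h, setting 3 counts over the 2 treated libraries in place of 0 gives a 9.58-fold lower level. That value takes the DMSO counts as exact, so it is an illustration and not a bound.

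Time in culture was compared within each treatment. These comparisons share their libraries with the BRM014 comparisons above. In DMSO, 5 of 9 tested members differed between 30 h and 6 h, 3 higher and 2 lower, where 35.2% of all tested genes differed (18% higher, 17.2% lower). The 3 ligands rose, Tgfb1 by 0.60 ± 0.11 (adjusted p = 0.00112), Tgfb2 by 1.00 ± 0.16 (adjusted p = 0.000499) and Tgfb3 by 0.93 ± 0.23 (adjusted p = 0.00718). The Tgfb3 call was lost when DMSO 6 h replicate 2 was left out (0.72, adjusted p = 0.0659; 0.001 to 0.0659 over 17 alternatives). Smad3 (-0.47 ± 0.10, adjusted p = 0.00409) and Smad7 (-0.66 ± 0.15, adjusted p = 0.004) fell, with Smad7 at -0.39 without DMSO 30 h replicate 2. Tgfbr1 (0.29 ± 0.12, adjusted p = 0.0778) did not pass, and passed without DMSO 6 h replicate 2 (0.45, adjusted p = 0.0247; 0.0247 to 0.436 over 17 alternatives).

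In BRM014, 4 of 9 differed between 30 h and 6 h, all higher, where 36.5% of all tested genes differed (19.6% higher, 16.9% lower). Tgfb1 rose by 0.68 ± 0.11 (adjusted p = 0.000456), Tgfb2 by 0.68 ± 0.16 (adjusted p = 0.00442), Tgfb3 by 0.60 ± 0.20 (adjusted p = 0.0323) and Tgfbr2 by 0.78 ± 0.12 (adjusted p = 0.000314). The Tgfb3 call is uncertain, since it ended with DESeq2 (adjusted p = 0.0585) and without any 1 of the BRM014 libraries (0.0537 to 0.144), with 0.0209 to 0.144 over 17 alternatives. Smad3 (-0.01 ± 0.10) and Smad7 (-0.06 ± 0.14) did not pass (adjusted p = 0.957 and 0.763).

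**Figure D3:**
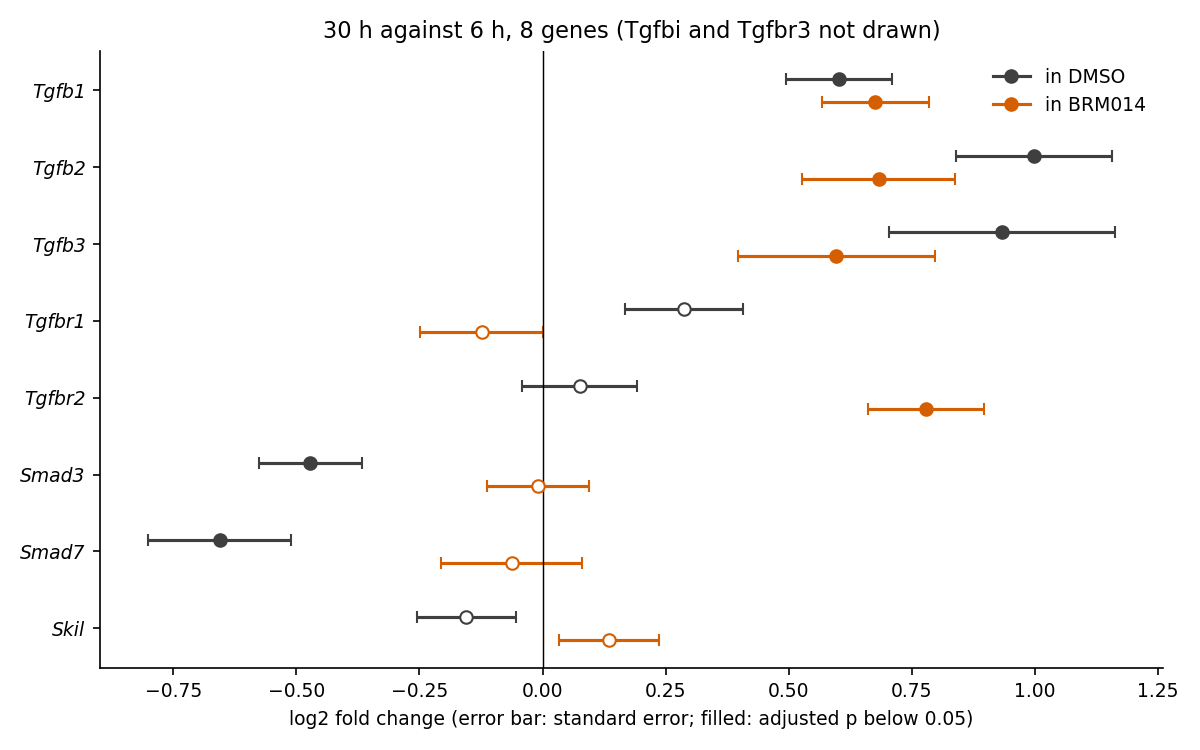
Log2 fold change of 30 h against 6 h (horizontal axis; bars: standard error) for 8 members in DMSO and in BRM014, with filled points for adjusted p below 0.05. The 3 ligands lie to the right of 0 in both treatments (0.60 to 1.00), and Smad3 and Smad7 lie to the left of 0 in DMSO (-0.47 and -0.66) and near 0 in BRM014.

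The other genes of the pathway were described by 5 lists written from general knowledge, with 67 genes of which 57 were tested. At 6 h 4 of these 57 rose and 22 fell (45.6% changed, beside 23.8% of all tested genes, 9.35% higher and 14.4% lower). At 30 h 13 rose and 15 fell (49.1%, beside 35.9% of all tested genes, 16.8% higher and 19.1% lower). All-gene medians were -0.01 and -0.0046. These lists count as descriptions and say nothing particular to the pathway. Eng and Col1a1, both tested, passed the filter through their DMSO libraries, so their lower values with BRM014 are not support for a change. Leaving out DMSO 6 h replicate 1 gave 17 changed genes at 6 h, and leaving out BRM014 6 h replicate 2 gave 16.

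Of 13 genes that hold or release latent ligand, 7 were tested, and Ltbp2, Lrrc32, Nrros, Itgb8, Fbn1 and Dcn were too low. At 6 h 1 rose and 4 fell (median -0.48), and at 30 h 2 rose and 3 fell (median -0.14), which is 71.4% of the 7 at each time beside 23.8% and 35.9% of all tested genes. Thbs1, the activator thrombospondin-1, was at 147 and 91.3 CPM in DMSO and 213 and 211 in BRM014 at 6 h, and rose by 0.83 ± 0.16 at 6 h (adjusted p = 0.00245) and by 0.91 ± 0.16 at 30 h. Its 6 h value was 1.25 without DMSO 6 h replicate 1 and 0.52 without DMSO 6 h replicate 2. Itgb6, the epithelial integrin subunit that activates latent TGF-beta with Itgav, was at 35.5 and 58.2 CPM in DMSO and 8.83 and 10.4 in BRM014 at 6 h. At 30 h Itgb6 was at 34.1 and 33.6 CPM in DMSO and 22.8 and 15.5 in BRM014. It fell by 2.28 ± 0.23 at 6 h and by 0.83 ± 0.22 at 30 h, the latter value -0.56 without BRM014 30 h replicate 2 (adjusted p = 0.115, in a range of 3.38e-08 to 0.115 over 17 alternatives). Its partner Itgav rose at 30 h (1.01 ± 0.11), with 0.25 ± 0.11 at 6 h (adjusted p = 0.118). Ltbp4, a latent TGF-beta binding protein gene, fell at both times (-1.05 ± 0.18, then -0.86 ± 0.18), and so did Furin (-0.83 ± 0.11, then -1.09 ± 0.12), the convertase that cleaves the propeptide.

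Of 15 activin, BMP and related ligand, receptor and antagonist genes, 13 were tested, with none higher and 6 lower at 6 h (median -0.41) and 1 higher and 6 lower at 30 h (median -0.43). These are 46.2% and 53.8% of the 13, beside 23.8% (9.35% higher, 14.4% lower) and 35.9% (16.8% higher, 19.1% lower) of all tested genes. Eng, counted as lower at both times, was low (1.14 to 2.66 CPM in DMSO, 0.257 to 1.12 in BRM014). It passed the filter through its DMSO libraries, so its calls are not support for a change. Gdf15, a stress-induced member of the ligand superfamily, was at 6.76 and 6.29 CPM in DMSO and 0.359 and 0.597 in BRM014 at 6 h, and fell by 3.73 ± 0.30. The 30 h levels were 14.6 and 14.8 CPM in DMSO and 1.18 and 1.63 in BRM014, and fell by 3.35 ± 0.24. Inhbb, an activin subunit gene, fell at both times (-1.87 ± 0.29, then -1.66 ± 0.33). The BMP type II receptor gene Bmpr2 rose at 30 h (0.80 ± 0.21), but its DMSO libraries were at 15.1 and 28.7 CPM, and the value was 0.43 without DMSO 30 h replicate 1, 1.34 without replicate 2 and 0.72 (adjusted p = 0.0689, and 9.12e-08 to 0.0689 over 17 alternatives) without BRM014 30 h replicate 2.

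The other 6 SMAD genes were all tested, and 1 of them, Smad1, a BMP-activated SMAD, fell at 6 h (-0.82 ± 0.12) and at 30 h (-0.41 ± 0.12, adjusted p = 0.0174). That is 16.7% of the 6 at each time, below the 23.8% (14.4% lower) and 35.9% (19.1% lower) of all tested genes. The 30 h call of Smad1 was lost when either DMSO 30 h replicate 1 (adjusted p = 0.0674) or, in turn, BRM014 30 h replicate 2 (0.162) was left out, and with scaling to ribosomal protein genes (0.0967), with 0.00532 to 0.162 over 17 alternatives. Smad2, which acts beside Smad3, and Smad4, the shared partner, both named after their values were seen, differed by 0.08 ± 0.10 and -0.03 ± 0.09 at 6 h and by 0.01 ± 0.10 and 0.01 ± 0.09 at 30 h, and did not pass.

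Of 16 regulators of SMADs, 2 rose and 2 fell at 6 h (median -0.03), and 5 rose and none fell at 30 h (median 0.14). Taken over both directions, these shares, 25% and 31.2%, were near the 23.8% and 35.9% of all tested genes. By direction, all tested genes stood at 9.35% higher and 14.4% lower at 6 h, and at 16.8% and 19.1% at 30 h. Smurf1, a ubiquitin ligase that Smad7 brings to the receptor, rose by 0.58 ± 0.15 at 6 h (adjusted p = 0.0136) and by 1.08 ± 0.15 at 30 h. Its 6 h call was lost when DMSO 6 h replicate 1 was left out (adjusted p = 0.0611), and likewise for DMSO 6 h replicate 2 (0.0752) or BRM014 6 h replicate 2 (0.143), in a range of 5.19e-07 to 0.143 over 17 alternatives. Zfyve9, which encodes the SMAD anchor SARA, rose by 0.51 ± 0.14 at 6 h, a call that ended without any 1 of 3 libraries (DMSO 6 h replicate 1 or either BRM014 6 h library). Zfyve9 was higher at 30 h as well, at 14.3 and 15.9 CPM in DMSO and 20.3 and 21.2 in BRM014. Its 30 h call ended without DMSO 30 h replicate 1 (0.40) or BRM014 30 h replicate 2 (0.43). The corepressor gene Tgif2 rose at 30 h (0.73 ± 0.19), except without BRM014 30 h replicate 2 (adjusted p = 0.0832, and 0.00255 to 0.0832 over 17 alternatives). Pmepa1, a TGF-beta-induced inhibitor of the pathway, fell at 6 h (-0.53 ± 0.09, adjusted p = 0.0011) and was at 0.18 ± 0.09 at 30 h (adjusted p = 0.161). Trim33 fell at 6 h (-0.41 ± 0.11, adjusted p = 0.0176), a call that ended without DMSO 6 h replicate 2 or BRM014 6 h replicate 2 and with library totals or ribosomal protein scaling (adjusted p = 0.00402 to 0.222 over 17 alternatives).

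Of 18 genes that textbooks list as induced by TGF-beta, 16 were tested. Many of them also answer to other signals. Col1a1 (0.407 to 1.96 CPM in DMSO, 0.103 to 0.428 in BRM014) passed the filter through its DMSO libraries, so its lower values are not support for a change. At 6 h 1 rose and 10 fell (median -0.63, beside -0.01 for all genes), 68.8% of the 16 beside 23.8% of all tested genes. At 30 h 5 rose and 5 fell (median 0.04, beside -0.0046), 62.5% beside 35.9%. Leaving out DMSO 6 h replicate 1 gave 7 changed genes at 6 h, and leaving out BRM014 6 h replicate 2 gave 6. Hmga2, a chromatin protein gene, fell at both times (-1.88 ± 0.13, then -1.64 ± 0.13), and the Notch ligand gene Jag1 fell by 1.15 ± 0.13 at 30 h. Jag1 was lower at 6 h as well, at 53.1 and 51.7 CPM in DMSO and 25.6 and 22.3 in BRM014. The cell cycle inhibitor gene Cdkn2b rose by 0.76 ± 0.13 and 1.12 ± 0.13. Snai1, a repressor of Cdh1, fell at 6 h (-1.20 ± 0.39, adjusted p = 0.0409), a call that ended in 6 of 17 alternatives (-0.80 to -1.49, adjusted p up to 0.303), among them without DMSO 6 h replicate 1 or either BRM014 6 h library.

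For the difference between the times, 9 of the 57 tested genes passed, all with a higher effect at 30 h, where 3.89% of all tested genes passed in that direction. Among them were Itgav, Itgb6, Inhba, Pmepa1, Fn1, Col4a1 and Tgm2, named together after their values were seen. The count was 5 without BRM014 6 h replicate 1. In DMSO, 2 of the 16 tested TGF-beta induced genes rose and 9 fell between 6 h and 30 h (median -0.56), beside 18% higher and 17.2% lower among all tested genes. In BRM014 4 rose and 4 fell (median 0.04), beside 19.6% and 16.9%.

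**Figure D4:**
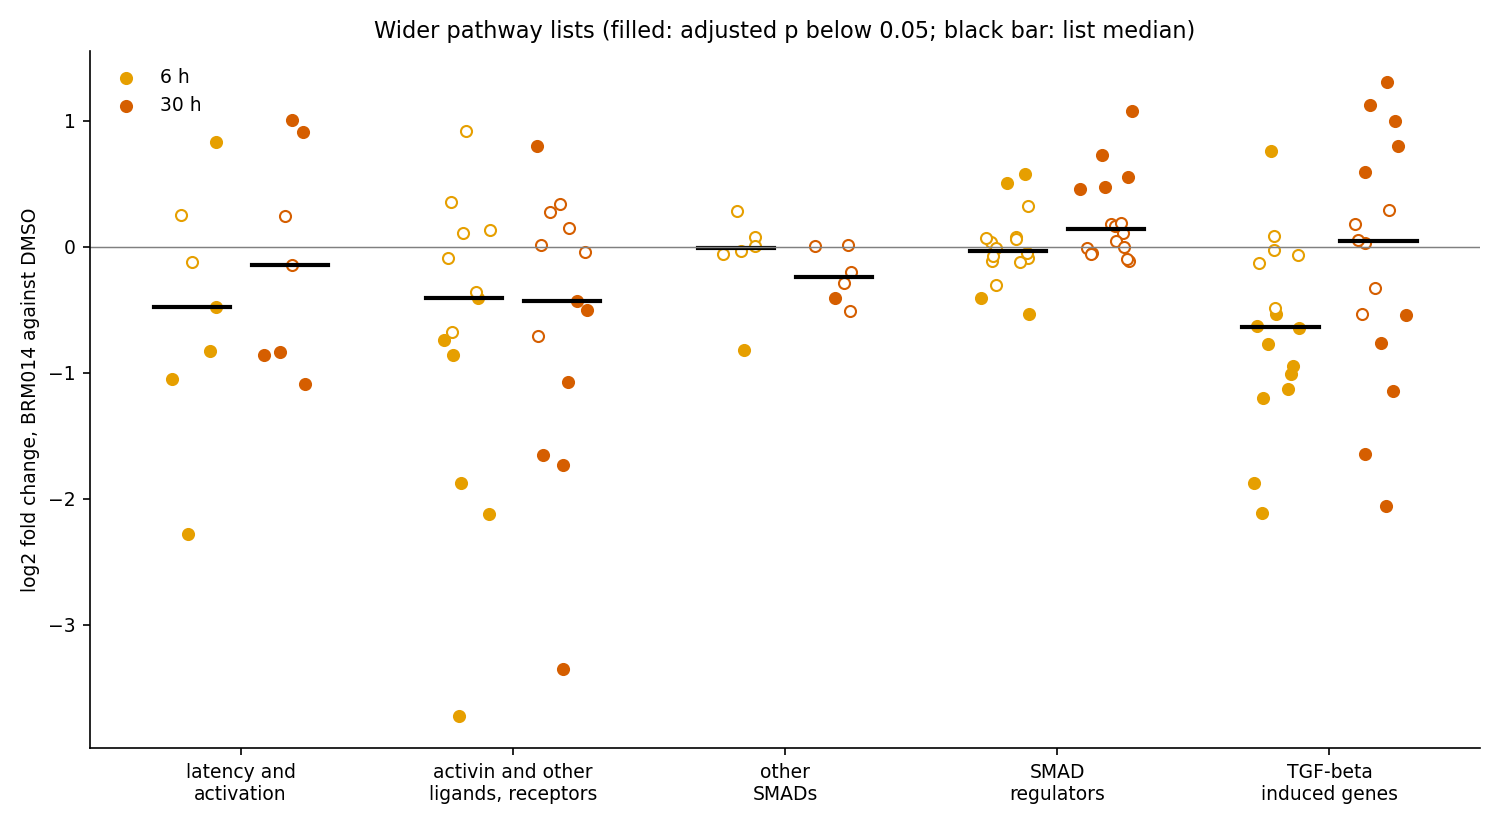
Log2 fold change of BRM014 against DMSO (vertical axis) for the tested genes of 5 pathway lists at 6 h and 30 h, 1 point per gene, with filled points for adjusted p below 0.05 and black bars for list medians. The TGF-beta induced genes have a median of -0.63 at 6 h and 0.04 at 30 h.

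For the 4 members with the largest BRM014 effects, the genes whose log2 CPM followed them most closely over the 8 libraries were found by Pearson's r among 9673 or 9674 genes. Such a search over so many genes and 8 libraries that share 4 groups always finds high values. Tgfbr1 was followed by Rtkn2 (0.991), Pik3r1 (0.99) and Acadl (0.989). Tgfb3 was followed by Klhl8 (0.995), Ttll1 (0.994) and Ghdc (0.99). Tgfbr2 was followed by Wipi1 (0.99), Hspa5 (0.968) and Fbxl12 (0.954), and the low counts of Tgfbi by Ly96 (0.986), Dcbld2 (0.981) and Tspan4 (0.978).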

How the data were processed

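RNA of NMuMG cells was sequenced as single reads of 50 bases from stranded total RNA libraries, per the labels. Each deposited value is an unnormalized read count for 1 gene. The submitters' processing notes name build mm9, Subread, SAMtools 0.1.19 and featureCounts. The annotation, other versions and strand setting were not given in the sources used here, so reads of overlapping or antisense genes cannot be told apart. Counts (17859693 to 29955366 per library) went into edgeR 4.0.16 (R 4.3.3), with filterByExpr (11835 genes, 55.7%), TMM and a quasi-likelihood fit of 4 group means to 8 libraries (4 residual degrees of freedom). All tests are 2-sided. The standard error is the size of the log2 fold change over the square root of F. The biological coefficient of variation was 9.30%. The script was tested on simulated counts.

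The members and lists were chosen with earlier results of these data known. All 10 members are named. From each wider list the 2 highest and 2 lowest passing genes with a mean log2 CPM of at least 1 are named at each time. Some genes of these lists are counted but not reported here singly. For likeness, 3 genes are named for each of the 4 members with the largest effects (mean log2 CPM of at least 2, prior count 2), leaving out provisional symbols such as Gm or Rik names. Alternatives were RLE factors, library totals, scaling to 79 ribosomal protein genes, no filter, a stricter filter (1 CPM in 4 libraries), DESeq2 1.42.0, limma-voom (limma 3.58.1), a 1.5-fold threshold (glmTreat), only the 4 libraries compared, a replicate block, and each library left out. Ranges over 16 or 17 alternatives leave out the 1.5-fold threshold and any setting that could not give a value.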

Additional observations from a re-analysis of the deposited data

Results flagged for a closer look

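The effects of BRM014 at 6 h and 30 h differed by a test of the difference itself (edgeR, Benjamini-Hochberg adjusted) for the following members and wider pathway genes. Tgfbr2 had a difference of 0.70 ± 0.16 (adjusted p = 0.0218), between -0.50 at 6 h and 0.20 at 30 h. That call ended without DMSO 6 h replicate 1 (0.58) or DMSO 30 h replicate 2 (0.59). It also ended without BRM014 6 h replicate 2 (0.55) or BRM014 30 h replicate 1 (0.63). Itgb6 had a difference of 1.44 ± 0.31 (adjusted p = 0.014), between -2.28 and -0.83, a call that ended without DMSO 6 h replicate 2 (1.06), BRM014 6 h replicate 1 (1.33) or BRM014 30 h replicate 1 (1.15). Itgav had a difference of 0.76 ± 0.15 (adjusted p = 0.0101), between 0.25 and 1.01, which ended with scaling to ribosomal protein genes (0.80) and without BRM014 6 h replicate 1 (0.73) or BRM014 30 h replicate 2 (0.69). Pmepa1 had a difference of 0.71 ± 0.13 (adjusted p = 0.00641), between -0.53 and 0.18, which ended without BRM014 6 h replicate 2 (0.67). Inhba, an activin subunit gene, had a difference of 1.13 ± 0.24 (adjusted p = 0.0124), between -0.86 and 0.27, which ended without DMSO 6 h replicate 1 (0.86), BRM014 6 h replicate 1 (1.03) or BRM014 30 h replicate 2 (0.99). The matrix genes Fn1 and Col4a1 had differences of 0.87 ± 0.14 (adjusted p = 0.00284), between -0.07 and 0.80, and 1.02 ± 0.13 (adjusted p = 0.000613), between -0.03 and 1.00, and both passed with any 1 library left out. The transglutaminase gene Tgm2 had a difference of 0.81 ± 0.21 (adjusted p = 0.0346), between -0.77 and 0.03, a call that ended with ribosomal protein scaling (0.85) and without DMSO 6 h replicate 2 (0.62), DMSO 30 h replicate 1 (0.69), BRM014 6 h replicate 1 (0.62) or either BRM014 30 h library (0.77 and 0.85). No explanation was tested.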

How the results depend on the processing

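Of 795 values of the single members under alternatives, the 1.5-fold test included, 739 kept their direction and side of the threshold, 27 lost a call, 17 gained one and 12 changed sign without a call. In the order 6 h, 30 h, difference, time in DMSO and time in BRM014, the fit called 4, 4, 1, 5 and 4 members, 2815, 4248, 766, 4167 and 4317 of all genes, 26, 28, 9, 23 and 17 wider pathway genes and 11, 10, 6, 11 and 8 induced genes. With a test against 1.5-fold, members were 2 at 30 h and 0, 0 and 0 in the last 3, all genes 707, 1216, 157, 565 and 659, wider genes 7, 11, 2, 7 and 4, and induced genes 3, 6, 2, 4 and 3. With any 1 library left out, members ranged over 2 to 4, 4 to 5, 0 to 3, 5 to 5 and 3 to 4, and all genes over 1415 to 3144, 3068 to 4192, 351 to 921, 2331 to 4223 and 2227 to 4683. Wider genes ranged over 16 to 27, 19 to 28, 5 to 11, 16 to 22 and 11 to 19, and induced genes over 6 to 11, 7 to 10, 5 to 6, 10 to 12 and 7 to 8. Members at 6 h were 2 without BRM014 6 h replicate 2, and for the difference they were 0 without DMSO 6 h replicate 1, DMSO 30 h replicate 2, BRM014 6 h replicate 2 or BRM014 30 h replicate 1 and 3 without DMSO 30 h replicate 1. Wider genes over time in BRM014 were 11 without BRM014 6 h replicate 1. For the difference, no filter gave 2 members, 1309 of all genes and 14 wider genes, and ribosomal protein scaling gave 408 of all genes. That scaling gave 14 wider genes over time in DMSO. The causes were not tested.

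Replicate numbers recur in each group, but no label ties them to a shared culture, and the replicate differences of 2 groups correlated at 0.011 to 0.201 over genes. With a replicate block the difference called 3 members (Tgfbr2, Smad3 at 0.47 and Smad7 at 0.60) and 1237 of all genes.

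Some values changed sign, none of them called after the change. Smad3 at 6 h was -0.081 without BRM014 6 h replicate 1 (range to 0.12), Skil at 30 h was -0.032 without BRM014 30 h replicate 1 (range to 0.12), and Snai1 at 30 h was 0.29 without DMSO 30 h replicate 1 (range from -1.08 without replicate 2, a call). The Tgfb1 difference was -0.048, -0.051 and -0.00076 without DMSO 6 h replicate 1, DMSO 30 h replicate 2 and BRM014 30 h replicate 2 (range to 0.18). Tgfbr2 over time in DMSO was -0.025 and -0.010 without DMSO 6 h replicate 2 and DMSO 30 h replicate 1 (range to 0.19). Over time in BRM014, Smad3 was 0.033 with library totals, 0.10 with ribosomal protein scaling, and 0.090 and 0.046 without BRM014 6 h replicate 1 and BRM014 30 h replicate 2 (range from -0.11), and Smad7 was 0.047 with ribosomal protein scaling.

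The share of lower genes among all called moved from 60.7% to 45.1% at 6 h and from 48.8% to 34.1% over time in DMSO with library totals. With ribosomal protein scaling it moved from 53.2% to 42.6% at 30 h, from 39.9% to 27.7% for the difference, from 48.8% to 33.8% over time in DMSO and from 46.3% to 24.9% over time in BRM014, where the median of all genes shifted by 0.11. Depth limits Tgfbi and Tgfbr3, with at most 33 and 11 counts in a library.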
